A study of Homo sapiens with 12 samples.

Results

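The 46 genes described here encode nucleolar ribosome biogenesis factors. They were found in both deposited tables as the rows whose identifier equals the gene symbol, 46 of 26485 genes. HEK293T is a human embryonic kidney line that is easily transfected. Its cells received by polyethylenimine a plasmid of the PX330-GFP type, which drives an sgRNA and, in some versions, the Cas9 nuclease. There were 4 groups of 3 libraries of polyA RNA: a Luciferase sgRNA with Cas9, a Luciferase sgRNA without Cas9, a 6T sgRNA with Cas9, and a 6T sgRNA without Cas9. Every group was transfected and carried an sgRNA, so no group of untouched cells enters these values. The labels do not say what the 6T sgRNA targets, how long after transfection cells were taken, whether transfected cells were sorted, or whether the replicates were separate cultures. The p-values therefore measure the spread between these libraries, which may be technical.

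Each table holds the mean of 3 libraries for a condition A and for a condition B under 1 sgRNA. Which of them held Cas9 is not stated in the headers, nor whether it was the same one in both tables, so every value is given for condition B or A of a named sgRNA. The values are reads per gene after division by a size factor per library, called normalized reads here. Whole reads per library were recovered from the means, and the libraries are named by condition and a number that follows the size factor and marks no replicate. NCL could not be resolved into libraries in condition B under the Luciferase sgRNA, so 45 of the 46 genes enter the fits over 12 libraries.

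Ribosomes are assembled in the nucleolus around a long precursor RNA that RNA polymerase I transcribes. Small nucleolar ribonucleoproteins (snoRNPs) guide its methylation and pseudouridylation, the small subunit processome folds and cleaves its 5′ part, and a separate set of helicases, GTPases and scaffold proteins builds the large subunit. Genes of this pathway are known as targets of MYC, which binds the E-box motif CACGTG, and their transcripts are abundant in dividing cells.

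The promoters are shown because a shared motif is a feature of these genes that was not used to choose them. Promoter sequence was at hand for 40 of the 46 genes, as 300 bases around the start site in RefSeq on GRCh38.p14. CACGTG reads the same on both strands and no other motif was searched. It was present in 14 of the 40 (35.0%), against 27 of 104 other ribosome biogenesis genes (26.0%), 1407 of 15843 protein-coding genes (8.88%) and 2030 of all 27305 promoters (7.43%). UTP18 and MDN1 held it at 2 places. Below are 100-base stretches of 6 of these promoters, 5′ to 3′ on the strand of the gene and ending 30 bases after its start, in lower case with the E-box in capitals. They were picked to hold genes lower (FBL, RRP9) and higher (WDR43, UTP20, GNL2, NOC3L) in condition B under the Luciferase sgRNA. Their places are chr19:39846350-39846449 on the minus strand for FBL, chr3:51941875-51941974 on the minus strand for RRP9, chr2:28894597-28894696 on the plus strand for WDR43, chr12:101280035-101280134 on the plus strand for UTP20, chr1:37595908-37596007 on the minus strand for GNL2 and chr10:94362910-94363009 on the minus strand for NOC3L.
FBL: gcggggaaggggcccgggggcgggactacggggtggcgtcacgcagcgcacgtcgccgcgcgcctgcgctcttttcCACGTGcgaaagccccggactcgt
RRP9: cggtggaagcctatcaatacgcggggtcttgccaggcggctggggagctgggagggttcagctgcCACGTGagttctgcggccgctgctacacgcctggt
WDR43: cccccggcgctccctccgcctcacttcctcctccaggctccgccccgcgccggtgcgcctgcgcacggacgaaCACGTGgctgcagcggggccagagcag
UTP20: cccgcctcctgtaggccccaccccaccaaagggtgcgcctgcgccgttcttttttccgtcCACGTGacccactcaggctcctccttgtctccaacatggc
GNL2: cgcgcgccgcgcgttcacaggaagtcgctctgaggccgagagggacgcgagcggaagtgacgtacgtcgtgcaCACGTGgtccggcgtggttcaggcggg
NOC3L: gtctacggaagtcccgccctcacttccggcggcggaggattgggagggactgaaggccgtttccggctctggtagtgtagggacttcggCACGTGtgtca
In FBL, WDR43, GNL2 and NOC3L the motif starts downstream of the annotated start, and in RRP9 and UTP20 upstream of it. Under the Luciferase sgRNA the median log2 fold change, condition B over A, was 0.09 for the 14 genes with it and 0.05 for the 26 without it. With the 6T sgRNA it was -0.08 for the 14 and -0.08 for the 26.

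The 6 libraries of the Luciferase sgRNA held 19399375 to 38076941 reads in genes in condition B and 5891016 to 8239246 in condition A. Those of the 6T sgRNA held 6654407 to 8298553 in condition B and 6346970 to 8267571 in condition A. The deeper sequencing of 1 group sets it apart, and values of low genes are more precise there. The part of depth in the results below was not tested. The markers of the line were present in all 4 groups, with NEFL, NEFM, INA, PAX2, VIM and LIN28B between 120.0 and 5710 normalized reads. Of the markers of other cells, CD3E, HBB and APOB were at 0, PTPRC reached 0.416, LYZ 1.37, ALB 7.92, DCN 8.21, LUM 51.8 and COL3A1 95.1 normalized reads.

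All 46 genes were well measured, with group means from 114 normalized reads for PPAN in 6T condition A to 15466 for NCL in the same group. Averaged over the 4 groups, NCL and NPM1, abundant nucleolar phosphoproteins that bind RNA and histones, were at 13915 and 7869.9 normalized reads. At the other end, PPAN, a large subunit assembly factor, was at 123, and UTP15, a small subunit processome protein, at 259. Per kilobase of transcript the order led with FBL, the box C/D methyltransferase, at 4673, followed by NPM1 at 4477, NCL at 3449 and NHP2, a box H/ACA protein, at 3269 normalized reads per kb. UTP15 was lowest at 52.6, with WDR12 at 64.5 and PPAN at 74.0 normalized reads per kb. Length here was that of the longest annotated protein-coding transcript, 8100 bases for WDR12, and whether these cells use it was not tested. NOP56 was the most even of the 46, with its 4 group means within 1.03-fold of each other, and WDR75 the least even, at 1.74-fold.

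Some of these levels may hold reads of other genes, or lack reads that fall in exons shared with them. The strand setting of the counting and its rule for shared reads are not given in the sources used here. In GENCODE 29, 59.8% of the exonic bases of PPAN are shared on the same strand with PPAN-P2RY11 or P2RY11, 54.4% of those of NOP2 with AC006064.6, and 34.8% of those of LTV1 with AL049844.3 or AL049844.1. On the opposite strand, RMND5B covers 27.4% of NHP2, and LGALS8 lies within the 23.2% of HEATR1 that antisense exons cover. Antisense exons also cover 20.8% of TSR1, 20.2% of NOB1, 20.2% of NIP7, 20.0% of NOP16 and 17.1% of NOP14. Same-strand exons cover 11.4% of RRS1, and smaller shares of several other listed genes are covered on either strand. NPM1 also has processed pseudogenes of near-identical sequence. Values of these genes are uncertain to that extent.

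Under the Luciferase sgRNA, none of the 46 genes was called between condition B and condition A in the authors' deposited DESeq test (adjusted p under 0.05), where 0% of 20194 genes were. At an unadjusted p under 0.05 it was again 0 of 46, beside 1.22% of all genes. By limma over 12 libraries none of 45 had an adjusted p under 0.05, beside 0% of 13994 genes, and 6 had an unadjusted p under it, beside 10.9%. With array weights in that fit, an alternative added after the data were seen, 14 of 45 had an adjusted p under 0.05 (6 higher and 8 lower in condition B), beside 22.4% of all genes, and the estimate of the weights did not converge. Of the 46, 29 had the higher mean in condition B and 17 the lower, beside 50.8% and 49.2% of all genes tested. The median log2 fold change of the 46 was 0.05, against 0.0065 over all genes tested. By limma the median was also 0.05, and it turned to -0.02 with upper-quartile scaling, where all genes were at -0.06, and to -0.02 with array weights. The fold changes were spread more widely than the median shows, from -0.24 for BOP1 to 0.64 for UTP15. In bulk libraries, fewer cells that express a gene and less RNA per cell cannot be told apart.

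Of all genes tested under the Luciferase sgRNA, 50.8% were higher in condition B in the deposited values. By limma 5316 of the 6460 genes with a GC content of 48.4% or less were higher there. The small subunit processome, with a median GC content of 41.5%, had 9 of 11 genes higher (median log2 fold change 0.17). DDX10, an RNA helicase, had the smallest p of this class, 629.9, 712 and 737 normalized reads in Luciferase condition B against 306, 605 and 603 in Luciferase condition A, with a log2 fold change of 0.46 and p = 0.163 in the authors' deposited table. All 3 libraries of condition B lay above all 3 of condition A, and within condition A library A1 was far below A2 and A3. UTP15, a WD-repeat protein at chr5:73565741-73583380, had 229.9, 295 and 323 normalized reads in Luciferase condition B and 142, 186 and 218 in Luciferase condition A, a 1.55-fold difference with p = 0.194 in the authors' deposited table. WDR75, another WD-repeat protein of the processome at chr2:189441474-189475552, had 652, 801 and 923 in condition B against 471, 631 and 646 in condition A. For both, the libraries of the 2 conditions did not overlap, by a margin that was small beside the spread within condition B. The helicase DDX21 had a log2 fold change of 0.34, the processome proteins UTP18, HEATR1, UTP20, WDR43 and NOP14 had 0.22, 0.17, 0.16, 0.14 and 0.05, and RRP9, which binds the U3 snoRNA, and NOC4L had -0.22 and -0.19.

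The transcription and snoRNP genes were mixed. NOP58, a core box C/D protein at chr2:202265763-202303661, had the smallest p of all 46 genes in this table, with 1536, 1755 and 1771 normalized reads in Luciferase condition B against 735, 1432 and 1383 in Luciferase condition A, a log2 fold change of 0.51 and p = 0.0750 in the authors' deposited table. Its partners FBL and NOP56 had log2 fold changes of -0.12 and 0.03. UBTF, the factor that keeps ribosomal DNA open for RNA polymerase I, averaged 2025 ± 165 normalized reads in condition B and 2369.5 ± 227 in condition A (SD, n = 3 each). Its log2 fold change was -0.23 with p = 0.180 in the authors' deposited table. The polymerase subunits POLR1A and POLR1B lay on either side of 0, at -0.13 and 0.22. NHP2 had 2889, 2883 and 2575 in condition B against 3045, 2909 and 3073 in condition A, and its groups did not overlap. The other box H/ACA genes, the pseudouridine synthase DKC1, its partner GAR1 and the snoRNP chaperone NOLC1, had log2 fold changes of 0.08, 0.03 and 0.02.

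NPM1, at chr5:171387116-171410900, had 6956, 8084 and 7904 normalized reads in Luciferase condition B against 4008, 7248 and 6735 in Luciferase condition A. The ranges overlapped, because library A2 lay above B1, and library A1 was far below the other 5. The means were 7648 in condition B and 5997 in condition A (p = 0.113 in the authors' deposited table). NCL had means of 13332 in condition B and 12765 in condition A in the authors' deposited table, a log2 fold change of 0.06. Of the later small subunit factors, the scaffold BYSL had 1015, 969 and 833 in condition B against 975, 1052 and 1161 in condition A, with a log2 fold change of -0.18. LTV1, a factor released late from the small subunit, was on the other side of 0 at 0.47, with 424, 533 and 609.9 in condition B against 213, 475 and 446 in condition A, and its groups overlapped. The GTPase-like TSR1, the endonuclease NOB1 and the export factor RRP12 were at 0.08, -0.11 and -0.19.

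The large subunit assembly genes had 10 of 18 higher in condition B (median log2 fold change 0.01), beside 50.8% of all genes tested. BOP1 and WDR12 form the PeBoW complex with PES1, and their values lay on opposite sides of 0. WDR12 had 419, 535 and 550.1 normalized reads in Luciferase condition B against 271, 475 and 401 in Luciferase condition A, a log2 fold change of 0.39 with p = 0.134 in the authors' deposited table. BOP1 had 2461, 2297 and 2165 in condition B against 2999, 2586 and 2611 in condition A, a log2 fold change of -0.24 with p = 0.174 in the authors' deposited table. PES1 was at -0.12. The GTPases GNL2 and GNL3 had log2 fold changes of 0.19 and 0.36, and NOC3L, DDX18 and MDN1 had 0.37, 0.26 and 0.20. MRTO4, PPAN, NOC2L and GRWD1 were at -0.18, -0.17, -0.16 and -0.15. The remaining NOP2, NOP16, RRP1, RRS1, NIP7 and NVL lay between -0.03 and 0.11. Over all 45 genes with values per library, 5 lay wholly higher in condition B and 4 wholly lower, beside 6.51% and 9.48% of all genes.

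**Figure D1:**
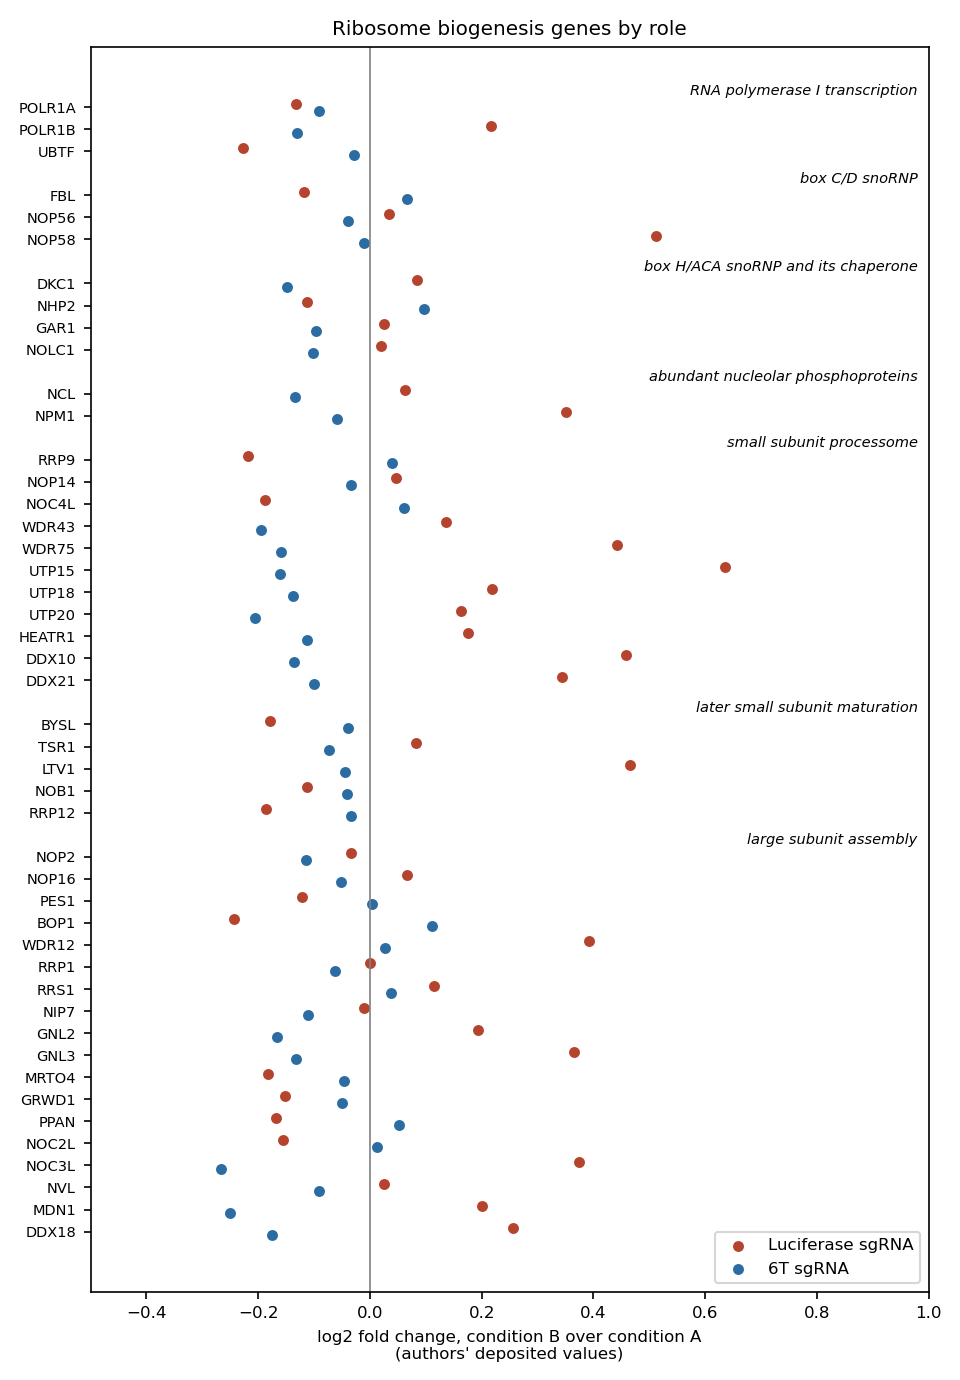
Log2 fold change of condition B over condition A (horizontal axis, authors' deposited values) for each of the 46 genes, grouped by role, under the Luciferase sgRNA (red) and the 6T sgRNA (blue). Red points run from -0.24 to 0.64 and blue points from -0.27 to 0.11, and for 27 genes the red point is above 0 and the blue point below it.

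Under the 6T sgRNA the log2 fold changes ran from -0.27 for NOC3L to 0.11 for BOP1. None of the 46 genes was called between condition B and condition A in the authors' deposited DESeq test (adjusted p under 0.05), where 0.0416% of 19246 genes were, and 0 of 46 had an unadjusted p under 0.05, beside 0.868% of all genes. By limma over 12 libraries it was 0 of 45 at either threshold, beside 0.0214% and 3.10% of 13994 genes. Of the 46, 36 had the lower mean in condition B and 10 the higher, beside 55.4% and 44.6% of all genes tested. The median log2 fold change of the 46 was -0.07, against -0.03 over all genes tested. The direction rested on single libraries. By limma, 34 of 45 genes were lower in condition B with all libraries, beside 57.0% of all genes. The count was 19 with library A2 left out, 18 with B2 left out and 21 with array weights. With A1, A3, B1 or B3 left out it was 39, 37, 40 and 39.

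MDN1, the very large ATPase that strips assembly factors from the large subunit, lies at chr6:89642498-89819794 and had the smallest p, 2503, 1859 and 2236 normalized reads in 6T condition B against 2566, 2525 and 2758 in 6T condition A, a log2 fold change of -0.25 with p = 0.0930 in the authors' deposited table. Its groups did not overlap, though B1 and A2 nearly met. NOC3L, a large subunit export factor, had the most negative log2 fold change of the 46, -0.27, with 637, 433 and 503 in condition B against 543, 800.0 and 547 in condition A, and its groups overlapped. DKC1 had 2487, 2287 and 2531 in condition B against 2595, 2741 and 2761 in condition A, without overlap. DKC1 and MDN1 were the 2 of 45 genes wholly lower in condition B and 0 were wholly higher, beside 3.73% and 4.19% of all genes.

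Of all genes tested, 55.4% were lower in 6T condition B, and by limma 4648 of the 6460 with a GC content of 48.4% or less. In the processome 9 of 11 genes were lower (median -0.14). WDR43, one of its WD-repeat proteins, had the smallest p there, 1591, 1246 and 1292 normalized reads in 6T condition B against 1423, 2013 and 1289.7 in 6T condition A, with p = 0.290 in the authors' deposited table. A single library, A2, was high and the other 5 lay between 1246 and 1591. The 3 RNA polymerase I genes had log2 fold changes from -0.13 to -0.03, with POLR1B at 1299.8, 982 and 1127 in condition B and 1044, 1418 and 1268 in condition A. The 5 later small subunit genes lay between -0.07 and -0.03, with the GTPase-like TSR1 at 1676, 1163 and 1424 in condition B and 1414, 1468 and 1603 in condition A. FBL had 5302, 5642 and 5727 in condition B against 5116, 5318 and 5493 in condition A, a log2 fold change of 0.07. NCL had 14748, 12643 and 14896 in condition B against 13688, 18235 and 14475 in condition A, where A2 was the highest of the 6 libraries. In these genes the conditions overlapped.

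**Figure D2:**
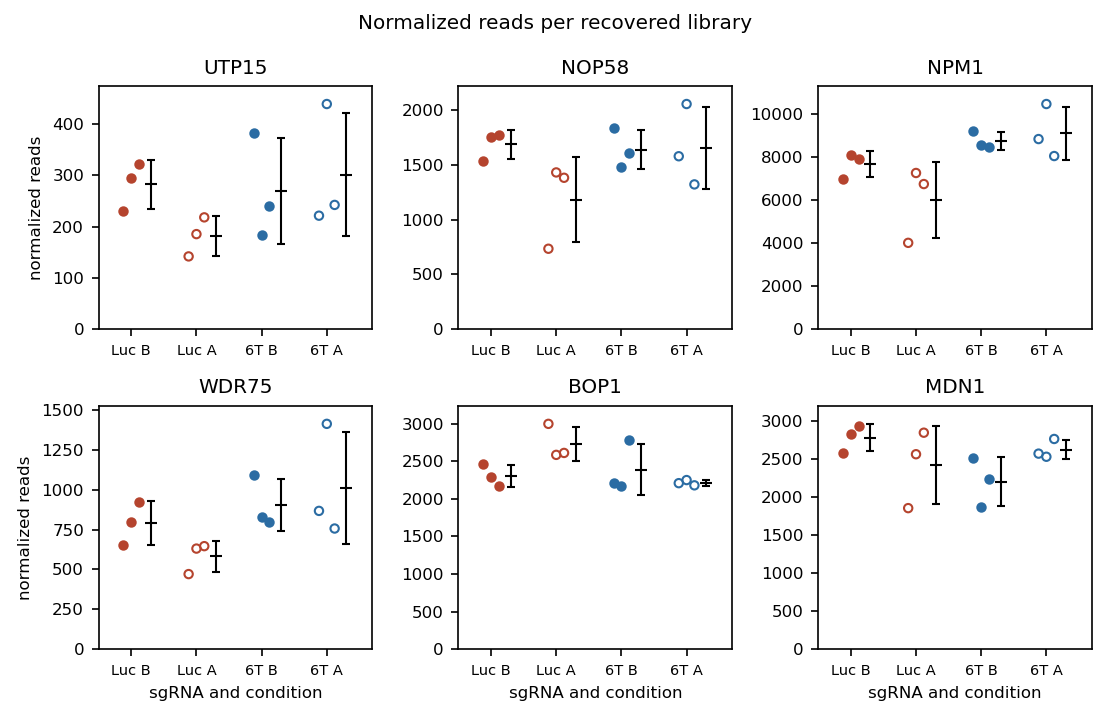
Normalized reads (vertical axes) in each recovered library for UTP15, NOP58, NPM1, WDR75, BOP1 and MDN1, by sgRNA and condition (Luc, Luciferase; filled, condition B; open, condition A), with the mean and SD of 3 libraries beside the points. The lowest open red point of NOP58, NPM1 and MDN1 is Luciferase library A1, and the highest open blue point of UTP15, NOP58, NPM1 and WDR75 is 6T library A2.

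Whether the difference between condition B and A was itself different under the Luciferase sgRNA and under the 6T sgRNA was tested by limma over 12 libraries, as Luciferase B over A minus 6T B over A. None of 45 genes had an adjusted p under 0.05, beside 0% of 13994 genes, and 4 had an unadjusted p under 0.05, beside 9.48%. The median difference was 0.12 on the log2 scale, against 0.04 over all genes. With 1 library left out it ran from 0.04 without 6T B2, where all genes were at 0.03, to 0.28 without 6T B1. It was 0.04 with upper-quartile scaling and 0.02 with array weights. The smallest p was that of BOP1, with a difference of -0.34 (SE 0.14, adjusted p = 0.483). Beside its values under the Luciferase sgRNA above, it had 2214, 2173 and 2785 normalized reads in 6T condition B and 2209, 2250.2 and 2180.1 in 6T condition A. MDN1 followed with a difference of 0.48 (SE 0.20, adjusted p = 0.483), from 2578, 2820.1 and 2931 in Luciferase condition B and 1850.4, 2558 and 2841 in Luciferase condition A beside the 6T values above. DDX18, an RNA helicase, had a difference of 0.46 (SE 0.21, adjusted p = 0.483). It had 1309, 1438 and 1423 in Luciferase condition B and 876, 1309.9 and 1307 in Luciferase condition A, and 1656, 1246 and 1372 in 6T condition B and 1483, 1781 and 1564 in 6T condition A. In the deposited means, 27 of the 46 genes were higher in condition B under the Luciferase sgRNA and lower under the 6T sgRNA, 8 were the reverse, 2 were higher in both and 9 lower in both. The same counts over all genes were not made, so these do not show whether the pattern is particular to the 46 genes.

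The sgRNAs were also compared within a condition of the same letter, with the limit that the letter may not stand for the same plasmid in both tables. In condition A, 0 of 45 genes differed between the Luciferase and the 6T sgRNA at an adjusted p under 0.05 by limma over 12 libraries, beside 0.100% of 13994 genes. At an unadjusted p under 0.05 it was 19 of 45, beside 31.5% of all genes. Of the 19, 6 were higher and 13 lower under the Luciferase sgRNA, beside 12.7% and 18.7% of all genes. NPM1 had the smallest p, with 4008, 7248 and 6735 normalized reads in Luciferase condition A against 8822, 10447 and 8034 in 6T condition A, a log2 difference of -0.64 (SE 0.17, adjusted p = 0.0626). Every Luciferase library lay below every 6T library. GNL3, the GTPase also called nucleostemin, had 1287, 2663 and 2299 under the Luciferase sgRNA against 3312, 3949 and 2993 under the 6T sgRNA, a log2 difference of -0.77 (SE 0.21, adjusted p = 0.0637). WDR75 had the values given above for Luciferase condition A against 868, 1414 and 757 in 6T condition A, a log2 difference of -0.76 (SE 0.21, adjusted p = 0.0651). On the higher side, the export factor RRP12 had 1840.5, 1553 and 1562 in Luciferase condition A against 1214, 1368 and 1323 in 6T condition A, a log2 difference of 0.34 (SE 0.10, adjusted p = 0.0710). Of the 45 genes, 18 had groups that did not overlap, 7 higher and 11 lower under the Luciferase sgRNA, beside 33.0% of all genes. Without Luciferase library A2, 5 genes passed the adjusted threshold, GNL3, NPM1, WDR12, DKC1 and DDX18, all lower under the Luciferase sgRNA, beside 7.97% of 13995 genes.

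In condition B, none of 45 genes had an adjusted p under 0.05 by limma over 12 libraries, beside 0% of all genes, and 1 had an unadjusted p under 0.05, beside 5.41%. That gene was MDN1, with 2578, 2820.1 and 2931 normalized reads in Luciferase condition B against 2503, 1859 and 2236 in 6T condition B, a log2 difference of 0.34 (SE 0.14, adjusted p = 0.90). NOP2, an rRNA methyltransferase, had 2523, 2185 and 2075 in Luciferase condition B against 2222, 1417 and 2070.2 in 6T condition B, a log2 difference of 0.27. RRP12 had 1616, 1354 and 1387 in Luciferase condition B against 1260.4, 1158 and 1397 in 6T condition B, a log2 difference of 0.19. In both genes 6T library B2 was the lowest of the 6. Over the 45 genes, 2 lay wholly higher and 1 wholly lower under the Luciferase sgRNA, beside 6.76% and 6.17% of all genes. Of the 45, 14 were lower under the Luciferase sgRNA with all libraries, beside 50.7% of all genes. With 1 library left out the count ran from 10 without 6T B1 to 32 without 6T B2.

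The fold changes of the 46 genes were ordered by the GC content of their transcripts, which runs from 37.7% for NOC3L to 65.2% for BOP1. Across the genes, Spearman's rho between GC content and the deposited log2 fold change was -0.88 under the Luciferase sgRNA and 0.71 under the 6T sgRNA (n = 46, the points sharing the same libraries), against -0.77 and 0.48 over 11550 and 11583 genes with a mean of 50 or more. The 10 genes of lowest GC content were all higher in Luciferase condition B (median log2 fold change 0.38), and 9 of the 10 were lower in 6T condition B (median -0.15). For all genes with a mean of 50 or more, the Luciferase medians were 0.37 and 0.26 around a GC content of 37.5% and 40.5%. The lower quartiles were 0.22 and 0.14, and the 6T medians -0.11 and -0.09. Of the 10 listed genes of highest GC content, 9 were lower in Luciferase condition B (median -0.16). The Luciferase medians of all genes around 58.5%, 61.5% and 64.5% were -0.13, -0.15 and -0.15. UTP15, WDR75, DDX10, WDR12 and NOP58 have GC contents from 38.7% to 41.3%, and BOP1, NOC4L and RRP9, which lay below 0 under the Luciferase sgRNA, from 60.9% to 65.2%.

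The roles differ in GC content as well. The processome genes have a median of 41.5%, and the large subunit assembly genes one of 54.1%. In the difference between the sgRNAs, the 23 genes with a GC content of 48.4% or less were all above 0, with a median of 0.40. Of all 6460 genes in that range 5450 were above 0, with a median of 0.27. The 22 genes of higher GC content had a median of -0.13, as did all 7166 genes there. Between the sgRNAs in condition A, 22 of the 23 genes of lower GC content were lower under the Luciferase sgRNA, with a median of -0.36. Of all 6460 genes in that range 5501 were lower, with a median of -0.29. After a linear correction for GC content within each library, the genes with an unadjusted p under 0.05 in condition A numbered 7 in place of 19, beside 17.3% of 13626 genes in place of 31.5%. Between the sgRNAs in condition B the number rose, to 3 from 1, beside 7.90% of all genes in place of 5.41%. For the difference between the sgRNAs it was 1 in place of 4, beside 4.48% in place of 9.48%. After the correction none of 45 had an adjusted p under 0.05 in any of the comparisons. Of all genes, 0.147% had one in condition A, in place of 0.100%, and the smallest adjusted p of the 45 there was 0.131.

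**Figure D3:**
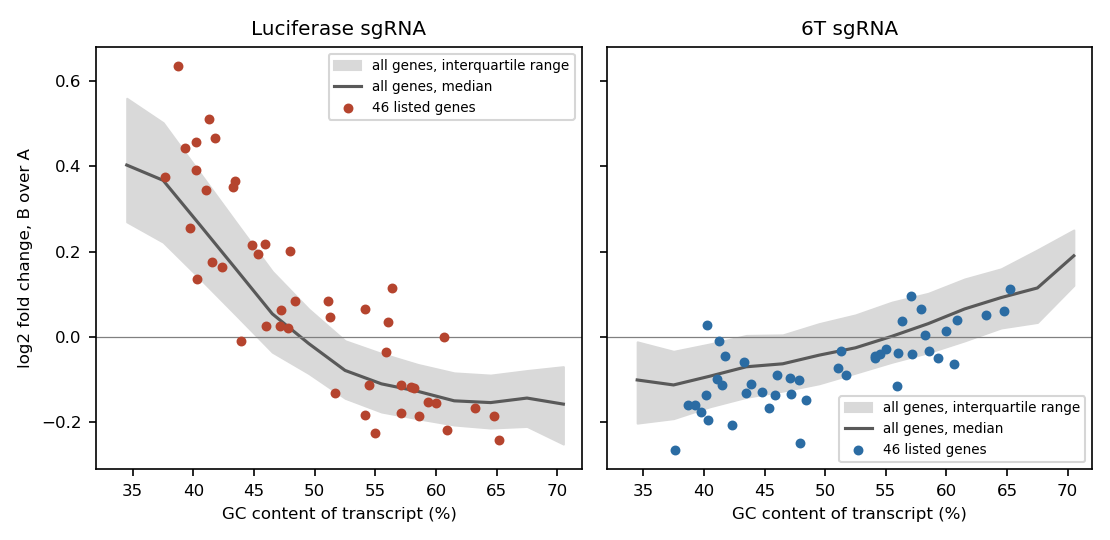
Log2 fold change of condition B over A (vertical axis, authors' deposited values) against the GC content of the transcript in percent (horizontal axis) for the 46 genes (points), under the Luciferase sgRNA (left) and the 6T sgRNA (right). The grey line and band give the median and interquartile range of all genes with a mean of 50 or more, and the points slope down on the left (rho -0.88) and up on the right (rho 0.71), as does the line.

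The libraries of a group also differed from each other. For the 46 genes, the median ratio of the highest to the lowest library within a condition was 1.29 in 6T condition B and 1.26 in 6T condition A. It was 1.17 in Luciferase condition B, over the 45 genes other than NCL, and 1.24 in Luciferase condition A. The median ratio between the means of the conditions, higher over lower, was 1.13 under the Luciferase sgRNA and 1.06 under the 6T sgRNA. A range over single libraries is wider than a ratio of means by construction, so these ratios are not like for like. LTV1 had the widest range within a group, 720.4, 379.8 and 436 normalized reads in 6T condition B and 437, 844 and 304 in 6T condition A, a 2.78-fold range in condition A. In all genes the within-condition ratios were 1.21, 1.21, 1.16 and 1.24 in the same order of groups.

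Many of the genes shared their highest or lowest library. Library A2 was the highest of 3 for 37 of the 46 genes in 6T condition A, and for 42.0% of all genes. Library B2 was the lowest of 3 for 39 of 46 in 6T condition B, and for 37.1% of all genes. Library A1 was the lowest for 34 of 46 in Luciferase condition A, and for 45.8% of all genes. In that library the 23 genes of lower GC content lay on average 0.60 below their 12-library mean on the log2 scale, while the 22 of higher GC content lay 0.09 above theirs. In 6T library B2 both sets were below it, by 0.13 and 0.31. With Luciferase A1 left out, 25 of 45 genes were lower in Luciferase condition B and the median log2 fold change was -0.02, where it had been 17 lower with all 6 libraries. With any other library of the Luciferase sgRNA left out, 15 to 19 were lower. What libraries 6T A2, 6T B2 and Luciferase A1 differ in besides GC content was not tested.

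**Figure D4:**
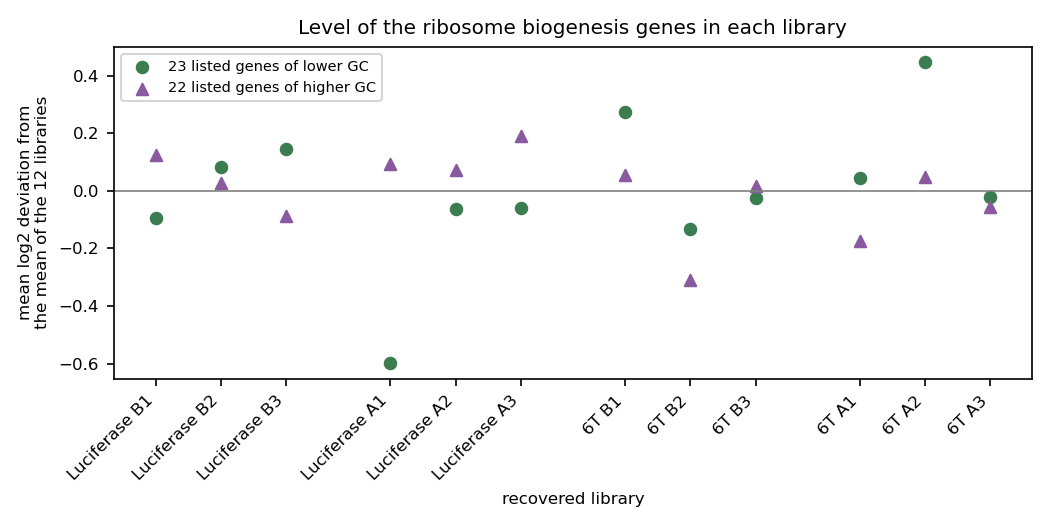
Mean log2 deviation from the 12-library mean (vertical axis) of the 23 genes of lower GC content (circles) and the 22 of higher GC content (triangles) in each recovered library, in the order Luciferase B, Luciferase A, 6T B and 6T A. The circle of Luciferase A1 is lowest at -0.60, the circle of 6T A2 highest at 0.45, and the triangle of 6T B2 lowest of the triangles at -0.31.

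For the rest of the pathway, another 122 ribosome biogenesis genes (RNA polymerase I factors, further processome, snoRNP and large subunit genes, and RNA exosome subunits) were taken as a list. None was called in either of the authors' deposited tables (adjusted p under 0.05). Below an unadjusted p of 0.05 there were 2 with the Luciferase sgRNA, beside 1.22% of all genes, and 1 with the 6T sgRNA, beside 0.868%. Of the 121 with values per library, 16 lay wholly higher and 11 wholly lower in Luciferase condition B, beside 6.51% and 9.48% of all genes, and 2 and 4 in 6T condition B, beside 4.19% and 3.73%. Under the Luciferase sgRNA 77 of 122 were higher in condition B (median log2 fold change 0.08), beside 50.8% of all genes tested (median 0.0065). With the 6T sgRNA 84 of 121 were lower there (median -0.07), beside 55.4% of all genes tested (median -0.03).

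TAF1D, a subunit of the selectivity factor for RNA polymerase I, had 229, 291 and 354 normalized reads in Luciferase condition B against 157, 193 and 207 in Luciferase condition A (p = 0.0411 in the authors' deposited table). NMD3, the adapter for large subunit export, had 387, 599 and 668 in condition B against 193, 433 and 375 in condition A (p = 0.0494 in the authors' deposited table). TEX10, of a large subunit assembly complex, had 565, 642 and 689 in condition B against 319, 506 and 516 in condition A (p = 0.0856 in the authors' deposited table). For TAF1D and TEX10, all 3 libraries of condition B lay above those of condition A. Under the 6T sgRNA, TTF1, which ends transcription by RNA polymerase I, had 265, 218 and 254 normalized reads in 6T condition B against 286, 343 and 318 in 6T condition A, without overlap (p = 0.0375 in the authors' deposited table). NOL8, a nucleolar protein, had 607, 451 and 584 in condition B against 651, 729 and 658 in condition A (p = 0.0512 in the authors' deposited table). TAF1B, another selectivity factor subunit, had 123, 137 and 130.1 in condition B against 162, 203 and 141 in condition A (p = 0.0869 in the authors' deposited table), and neither gene's groups overlapped.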

How the data were processed

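PolyA RNA of 12 libraries was sequenced in 4 groups of 3. The submitters' processing notes name STAR, hg38, HTSeq and DESeq without versions. Each of the 2 deposited tables gives signal values, the mean of read counts divided by size factors, per the file headers. The ratio column is the authors' fold change of condition B over A, and the log2 column its log2, as deposited. Per the file headers, the p-value columns hold the authors' own DESeq p and its adjusted form. Rows that name no gene held 38.7% (6T) and 41.7% (Luciferase) of the summed means and were left out.

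Each mean adds up whole reads of 3 libraries, each read worth a fixed step. The lowest means gave these steps, and thus the size factors, and a search gave the reads of each gene, with 1 solution for 99.7% to 100.0% of genes above 0 in each condition. For genes of higher mean, only splits with each library within a set distance of the mean were searched. Genes without a single solution held 12.0% to 12.1% of the reads in genes of each library in Luciferase condition B. NCL, among the genes with no single solution in Luciferase condition B, was left out of the fits. The size factors lay within 0.0453% of those computed by the median of ratios from 12 libraries together, against up to 37.2% from 1 table alone, so both tables share a normalization.

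limma (3.58.1, R 4.3.3) with a trend was fitted over 12 libraries to log2(normalized reads + 1), for 13994 genes with a mean of 10 or more, with Benjamini-Hochberg adjustment over all of them. Fold changes on that scale understate low genes. Recovery and fit were tested on simulated data. GC content and length are those of the longest protein-coding transcript of each gene in GENCODE, in the release used above for shared exons. For a gene with no protein-coding transcript, the longest of any type was used. RefSeq (GRCh38.p14) gave the places of genes and promoters. Named genes are the smallest p per role, table and contrast, and the extremes of the mean; LTV1, NOC3L and other genes were added after their values were seen. The genes and lists were chosen with earlier results of these data known. Alternatives covered the test, scaling, filter, pseudocount, GC content, variance model and left-out libraries.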

Additional observations from a re-analysis of the deposited data

How the results depend on the processing

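In B against A the count of called genes was 14 of 45 under the Luciferase sgRNA with array weights, beside 22.4% of all genes. It was 0 under each of the other alternatives run and under the 6T sgRNA. For these comparisons the fits over 12 libraries with other scaling, pseudocounts, filter, GC correction and variance models were chosen after seeing the data. For the difference between sgRNAs the count was 1 (BOP1) with array weights, beside 6.77% of all genes, and 0 under the other settings. For Luciferase against 6T in condition A it was 19 with array weights, beside 25.3% of all genes. It was 4 with upper-quartile scaling (NPM1, WDR75, RRP12 and GNL3), beside 5.60%, and 0 to 5 with a library left out. The 5 were without Luciferase A2, beside 7.97% of all genes. In condition B it was 1 (MDN1) with array weights, beside 6.10% of all genes, and 0 with any library left out. The iterative fit of the array weights did not converge to its tolerance, and its weights ran from 0.217 to 8.22. The cause of these changes was not tested. Over all genes, 14 were called between the sgRNAs in condition A, against 289 with scaling to total reads, 783 with upper-quartile scaling, 3546 with array weights, 1116 without Luciferase A2 and 0 without Luciferase A1, 6T A1 or 6T A3; in the difference between sgRNAs it was 947 with array weights against 0, in condition B 853 against 0, and in B against A 3132 against 0 under the Luciferase sgRNA and 12 against 3 under the 6T sgRNA. Upper-quartile scaling called 5 in the last, and linear GC correction 1 in Luciferase B against A and 1 in condition B, against 0. Upper-quartile scaling also moved the median of the 45 genes in condition A to 0.04, against -0.04, while the median of all genes moved to 0.07, against -0.01. It turned the Luciferase B against A median to -0.02, against 0.05, and lowered the difference between sgRNAs to 0.04, against 0.12. With array weights these were -0.02 and 0.02, the condition A median was 0.06 and the 6T B against A median 0.01, against -0.08. Without 6T A2 and without 6T B2 the median of the 6T comparison was 0.03 in each case. No paired analysis was possible because the recovered libraries carry no replicate number. Luciferase condition B was sequenced more deeply than the other groups, and the part of depth was not tested.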
